A study of Mus musculus with 9 samples.

Results

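Kruppel-like factors are DNA-binding proteins that set how monocytes mature and how readily they respond to inflammatory signals, and 9 of their genes were followed here in monocytes from mouse spleen: Klf2, Klf3, Klf4, Klf6, Klf7, Klf10, Klf11, Klf13 and Klf16. The genes were taken by symbol from both deposited tables, which held 46072 genes each. Each of the 9 symbols had 1 row in each table, every member passed the filters of the test, and no expression threshold was used to choose them.

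RNA was sequenced from 9 libraries of splenic monocytes, with 3 female C57BL/6 mice in each of 3 groups and no stimulation in culture. The Con group had 6 days of water by gavage. The Van group had vancomycin, an antibiotic that is poorly absorbed from the intestine, over the same 6 days, at 2 mg a day for each animal. VanLip mice had the same vancomycin and then L654, a lipid of gut Bacteroidota that is sensed by the receptor TLR2, injected behind the eye on days 7, 9 and 11. Per the labels, all 3 groups had 6 to 8 days without antibiotic after the gavage, and no injection is given there for Con or Van. The study's own account instead has monocytes of every group collected at the longest of these rest times, and counts the injection days from the start of the rest. It names an injection for VanLip alone but points to a timeline whose control mice were injected with PBS, so it was not settled whether Con and Van differ from VanLip in the injection as well as in L654. Monocytes were enriched by removing other cells with magnetic beads, which leaves a mixture of monocyte types, and fewer cells of a type and less RNA per cell cannot be told apart. For its stimulated cultures the study combined the cells of pairs of spleens from the same cohort before isolating monocytes. Whether this was also done for the RNA libraries was not given in the sources used here.

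The total expected count was between 43070361 and 61383806 in the 6 Con and Van libraries and between 170503470 and 184720704 in the 3 VanLip libraries, and the commonest low count was 1.33 in the former and 2 in the latter. This low count was taken as the size of 1 read in the counts. That is an inference from the values, since the study names the same read length for all libraries. Both depth and this size went with the VanLip group, and the size cannot be told apart from it. With counts converted to fragments on that basis and VanLip thinned to the depth of the others, the calls for the 9 genes were the same as those given here. The label of the cells was checked against marker genes. The 9 monocyte markers, Csf1r, Ly6c2 and Ccr2 among them, summed to between 1926 and 2224 FPKM per library (fragments per kilobase of transcript, scaled to sequencing depth, a level that takes gene length into account). Of the other cell types, 4 macrophage markers summed to between 387 and 658 FPKM and 4 erythroid markers to between 56.8 and 639, so macrophage and red cell RNA was measured beside that of monocytes. The summed FPKM of the 4 B cell markers was between 8.31 and 12.3, of the 5 T cell markers between 7.09 and 15.9, and of the 4 NK cell markers between 0.248 and 0.771. It was between 1.88 and 10.8 for 5 neutrophil markers, 4.65 and 21.7 for 4 platelet markers, 11.0 and 17.1 for 4 dendritic cell markers, and 7.53 and 10.9 for 4 endothelial markers.

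As background, all Kruppel-like factors end in similar zinc fingers that read GC-rich sites, the CACCC box and the related GC box, while the rest of each protein decides whether the site is switched on or off. Klf2, Klf4, Klf6 and Klf7 belong to the branch that mostly activates. Klf2 keeps monocytes and lymphocytes quiet and restrains NF-kB, Klf4 is needed for the inflammatory Ly6C-high monocyte and Klf6 works with NF-kB in macrophages. Klf3 is a repressor that recruits CtBP proteins. Klf10, Klf11, Klf13 and Klf16 carry a domain that binds Sin3, the core of a histone deacetylase complex; Klf10 and Klf11 were named as early genes of TGF-beta, and Klf13 was found as a factor that drives the chemokine Ccl5 in T cells.

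These boxes were looked for in the promoters of the family's own genes. RefSeq promoter sequences (GRCm38.p6) were at hand for 7 of the 9 members, Klf10 and Klf16 being the exceptions, and the 250 bases before the start were searched on both strands. A GC box (GGGCGG or its reverse complement CCGCCC) was in 7 of the 7 windows, against 32.74% of 32851 promoter windows of the same length. A CACCC box (CACCC or GGGTG) was in 4 of the 7, near the 52.01% of all windows. The GC content of the windows was between 59.2% and 78.4%, with a median of 52.4% over all windows. A heat shock motif (GAANNTTC) and the cyclic AMP motif TGACGTCA were in none of the 7, against 6.694% and 1.546% of all windows, and a MEF2 motif (CTA and TAG with 4 bases between them) was in 1 of the 7, Klf2, against 3.202%. The sequences below are those of the 3 members with a called difference and of Klf2, each read 5′ to 3′ on its gene's strand and cut before the first annotated exon base. Capitals mark GC boxes and CACCC boxes, which can overlap each other, and in Klf2 also the MEF2 motif at position -118 from the RefSeq start. The stretches are chr7:63938916-63939165 on the minus strand for Klf13, chr5:64803271-64803387 on the plus strand for Klf3, chr12:24651121-24651273 on the plus strand for Klf11 and chr8:72318812-72319032 on the plus strand for Klf2.
Klf13: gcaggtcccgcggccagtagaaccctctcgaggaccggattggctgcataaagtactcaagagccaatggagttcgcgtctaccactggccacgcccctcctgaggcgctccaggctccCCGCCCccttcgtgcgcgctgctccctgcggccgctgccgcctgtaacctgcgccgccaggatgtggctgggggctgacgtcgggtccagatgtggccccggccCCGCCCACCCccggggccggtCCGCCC
Klf3: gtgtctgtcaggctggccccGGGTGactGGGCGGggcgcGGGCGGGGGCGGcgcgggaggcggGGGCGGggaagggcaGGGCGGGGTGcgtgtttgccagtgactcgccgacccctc
Klf11: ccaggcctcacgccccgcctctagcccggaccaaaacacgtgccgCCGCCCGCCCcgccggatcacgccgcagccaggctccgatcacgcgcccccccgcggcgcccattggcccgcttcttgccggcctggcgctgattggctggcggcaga
Klf2: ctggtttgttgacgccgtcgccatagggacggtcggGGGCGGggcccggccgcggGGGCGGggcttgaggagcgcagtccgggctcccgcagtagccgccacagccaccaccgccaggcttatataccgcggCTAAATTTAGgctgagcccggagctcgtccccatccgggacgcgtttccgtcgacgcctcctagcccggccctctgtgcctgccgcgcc
Within these stretches Klf13 had 3 GC boxes and 1 CACCC box, Klf3 had 5 and 2, and Klf11 had 2 and none. Klf2 had 2 GC boxes, no CACCC box and the MEF2 motif, which is named after the factors that carry the flow-induced signal of the kinase genes Map2k5 and Mapk7 to this gene. A match of letters is a description and not a bound site.

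The 9 genes spanned a wide range of levels. In Con the mean FPKM fell in the order Klf2, Klf4, Klf6, Klf13, Klf3, Klf10, Klf11, Klf16 and Klf7, from 228 ± 22.8 to 4.12 ± 0.307 (SD, n = 3), and no neighbours in that order overlapped between libraries. In Van the order was the same, with overlap between Klf4 and Klf6 and between Klf3 and Klf10. In VanLip the ranges of Klf2 and Klf4 overlapped, as did those of Klf10, at a mean of 47.0 FPKM, and Klf3, at 46.9. All members lay between percentiles 67.65 and 99.25 in each library, among the 26108 genes with a count above 0 in at least 1 library. Genes at 0 in a library were kept in its ranking. Klf2, Klf4, Klf6 and Klf13 together gave between 80.3% and 81.9% of the summed FPKM of the 9 genes in Con, 82.1% and 85.8% in Van, and 82.6% and 86.6% in VanLip. Con, Van and VanLip libraries had summed FPKM values of 765 ± 40.2, 928 ± 34.0 and 791 ± 114 (mean ± SD, n = 3 each).

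**Figure D1:**
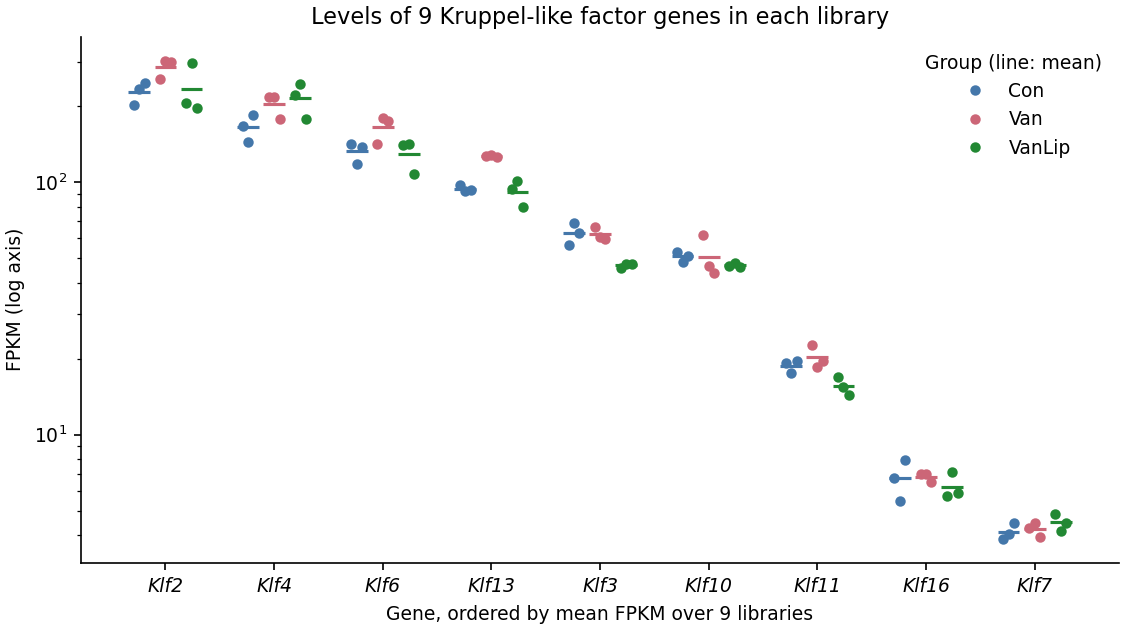
FPKM of the 9 genes on a log axis, with 1 point per library and a line at each group's mean, coloured by group (3 libraries each). Klf2 is at the top, with libraries between 197 and 304 FPKM, and Klf7 at the bottom, between 3.86 and 4.85.

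The first question was how the family differed after vancomycin (Van against Con), the second how monocytes of mice that also had L654 differed from those gavaged with water (VanLip against Con), and the third how mice given L654 after vancomycin differed from those given vancomycin alone (VanLip against Van). A gene was called at a Benjamini-Hochberg adjusted p of 0.05 or under in the DESeq2 Wald test over all genes. For Van against Con, 1 of the 9 genes, Klf13, was called higher and 0 lower, while 4.34% of 18516 genes were called, 2.27% higher and 2.06% lower. For VanLip against Con, 1 gene, Klf3, was called lower and 0 higher, where 6.67% of 16552 genes were called, 2.98% higher and 3.69% lower. For VanLip against Van, 3 genes, Klf13, Klf3 and Klf11, were called lower and 0 higher, where 9.86% of 18025 genes were called, 4.58% higher and 5.28% lower. The 3 comparisons share libraries in pairs, so the fall in VanLip against Van and the rise in Van against Con rest in part on the same Van libraries. A test of any difference among the 3 groups called the same 3 genes, with adjusted p of 2.107e-07 for Klf13, 1.728e-05 for Klf3 and 0.008441 for Klf11, where 13.5% of all genes were called. Klf11 did not pass that test without VanLip replicate 2 (adjusted p = 0.06993) or replicate 3 (adjusted p = 0.0707).

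Over the 9 genes the median log2 fold change was 0.10 in the first comparison, -0.06 in the second and -0.30 in the third, beside medians over all genes tested of -0.01, 0.01 and 0.01. For Van against Con 7 members had a positive and 2 a negative value, for VanLip against Con 3 and 6, and for VanLip against Van 2 and 7. The libraries of the compared groups did not overlap in normalized count in 2, 3 and 4 members of the 9, where 24.1%, 24.5% and 28.6% of 13503 genes (those averaging 50 normalized counts or more) did not overlap. At an unadjusted p under 0.05, 4 members were higher in Van than in Con and 0 lower, against 7.56% and 7.32% of all genes. VanLip had 1 member higher and 2 lower than Con, against 9.11% and 9.52%, and 0 higher and 5 lower than Van, against 10.3% and 10.6%.

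**Figure D2:**
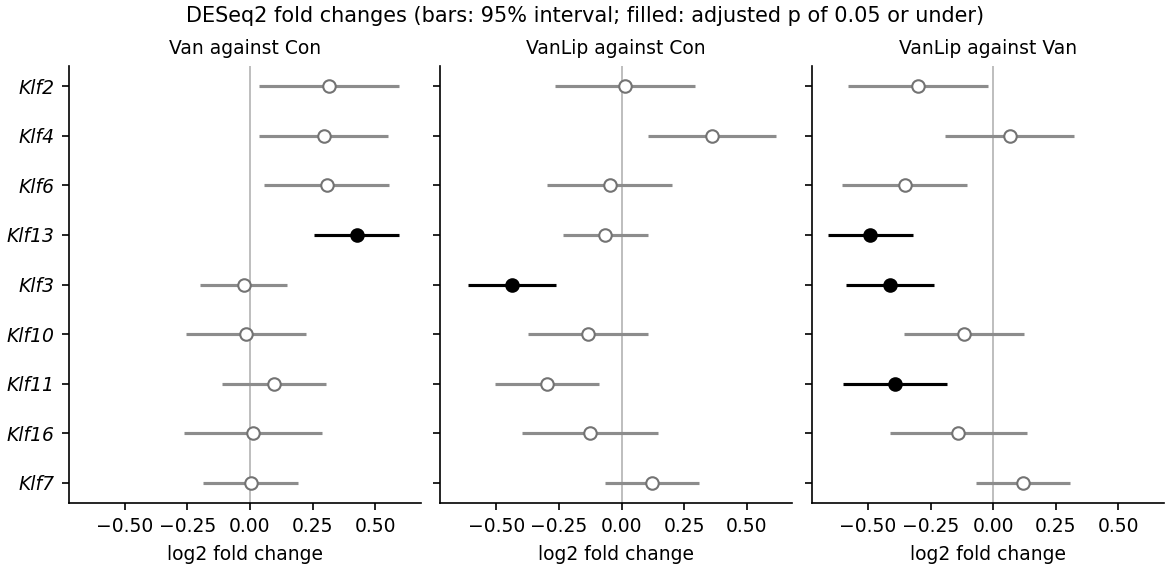
DESeq2 log2 fold changes of the 9 genes in the 3 comparisons, with bars for the 95% interval and filled points at an adjusted p of 0.05 or under. Klf13 is filled at 0.43 in Van against Con, Klf3 at -0.44 in VanLip against Con, and Klf13, Klf3 and Klf11 at -0.49, -0.41 and -0.39 in VanLip against Van.

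Among the activating branch, Klf2 (ENSMUSG00000055148, GRCm38 chromosome 8, 72319033 to 72321656), the factor of the resting state, had FPKM values of 203, 235 and 247 in Con, 256, 304 and 299 in Van, and 207, 298 and 197 in VanLip. Every Van library was above every Con library, and VanLip replicate 2 stood with the Van libraries while the other 2 lay at the low end of Con or below it. The log2 fold change for Van against Con was 0.31 (standard error 0.14, adjusted p = 0.2454). For VanLip against Van it was -0.30 (standard error 0.14, adjusted p = 0.1944), and without VanLip replicate 2 it was -0.50 with an adjusted p of 6.104e-05. Without that library the Van against Con difference, with the same 6 libraries compared, had an adjusted p of 0.01848, as all libraries in the fit share 1 estimate of the spread. Over all fits without 1 library, VanLip against Van lay between -0.50 and -0.19, with adjusted p up to 0.4741. Van against Con lay between 0.24 and 0.38 in these fits, with adjusted p up to 0.568. The interval for VanLip against Con ran from -0.26 to 0.30 around 0.02.

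Klf4 (ENSMUSG00000003032, chromosome 4, 55527143 to 55532466), on which inflammatory monocytes depend, had FPKM values of 168, 144 and 185.3 in Con, 218, 218 and 178 in Van, and 223, 246 and 178 in VanLip. In both vancomycin groups 2 libraries lay above all Con libraries and the other lay within the Con range. Its log2 fold change against Con was 0.30 in Van (standard error 0.13, adjusted p = 0.2302) and 0.36 in VanLip (standard error 0.13, adjusted p = 0.07276). Neither passed, and VanLip differed from Van by 0.07, with an interval from -0.19 to 0.32. The VanLip value passed without VanLip replicate 3, at 0.48 and an adjusted p of 0.001801, and with TMM library sizes (trimmed mean of M values), at 0.38 and 0.04331. Klf4 was the member of the 4 most abundant whose VanLip mean was not below its Van mean.

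Klf6 (ENSMUSG00000000078, chromosome 13, 5861482 to 5870394), a partner of NF-kB, had FPKM values of 142, 118 and 138 in Con, 142, 180 and 175 in Van, and 140, 142 and 108 in VanLip. In FPKM, Van replicates 2 and 3 were above all other libraries, and Van replicate 1 lay among the Con and VanLip values. In normalized count Van replicate 1, at 57405, was just above the highest VanLip library, at 56650, so Van and VanLip did not overlap. The log2 fold change was 0.31 for Van against Con (standard error 0.13, adjusted p = 0.1805) and -0.35 for VanLip against Van (standard error 0.13, adjusted p = 0.05483), just outside the threshold. Without Van replicate 1 both passed, at 0.40 (adjusted p = 0.04427) and -0.45 (adjusted p = 0.01526). The former also passed without VanLip replicate 3 (adjusted p = 0.04426), and the latter without VanLip replicate 1 (adjusted p = 0.02318) or 2 (adjusted p = 0.04482). Over all fits without 1 library, Van against Con lay between 0.23 and 0.40, with adjusted p up to 0.529. VanLip against Van lay between -0.45 and -0.23 in these fits, with adjusted p up to 0.2466. VanLip and Con differed by -0.05, with an interval from -0.30 to 0.20.

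Klf7 (ENSMUSG00000025959, chromosome 1, 64029447 to 64122282), best known from the developing nervous system, was the least abundant member, with FPKM values of 3.86, 4.04 and 4.46 in Con, 4.27, 4.48 and 3.94 in Van, and 4.85, 4.14 and 4.49 in VanLip. The 3 groups overlapped throughout. The intervals of the log2 fold change were -0.19 to 0.19, -0.07 to 0.31 and -0.07 to 0.305 in the 3 comparisons, in the order given above. Mir6899 on its own strand and Gm26649 and Gm13748 on the other overlap it and can exchange reads with it.

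Klf3 (ENSMUSG00000029178, chromosome 5, 64803388 to 64832901), the CtBP-dependent repressor, was lower in VanLip than in both other groups. Its FPKM values were 56.7, 69.0 and 63.3 in Con, 66.6, 60.7 and 59.6 in Van, and 45.7, 47.3 and 47.7 in VanLip. All 3 VanLip libraries were below all 6 others and close together, with a coefficient of variation of 2.23%, while Con and Van overlapped. Normalized counts (expected counts divided by the library's DESeq2 size factor) of Con, Van and VanLip were 30284 ± 3232, 29761 ± 2050 and 22361 ± 331 (mean ± SD, n = 3 each). VanLip was lower than Con (log2 fold change -0.44, standard error 0.09, adjusted p = 8.366e-05) and lower than Van (log2 fold change -0.41, standard error 0.09, adjusted p = 0.0001563). Van and Con differed by -0.03, with an interval from -0.20 to 0.15. On limma with quantile-normalized log2(FPKM + 1) the VanLip against Con value was -0.47 with an adjusted p of 0.05742, and with a pseudocount of 0.1 neither this nor the VanLip against Van value passed (adjusted p = 0.07285 and 0.06097). The gene overlaps C230096K16Rik on its own strand and Gm20033 on the other, which can exchange reads with it.

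In the Sin3-binding branch, Klf13 (ENSMUSG00000052040, chromosome 7, 63886351 to 63938915) was higher in Van than in both other groups. FPKM was 97.6, 92.0 and 93.1 in the Con libraries, 127, 128 and 126 in Van, and 94.0, 101 and 80.1 in VanLip. The Van libraries were close together and above all others, and the VanLip libraries spanned the Con range, with replicate 2 above it and replicate 3 below it. Normalized counts of the groups in that order were 55774 ± 2546, 74943 ± 1276 and 53339 ± 5867 (mean ± SD, n = 3 each). Van was 1.34-fold higher than Con, or 0.43 on the log2 scale (standard error 0.09, adjusted p = 0.0001261). VanLip was lower than Van (log2 fold change -0.49, standard error 0.09, adjusted p = 1.048e-06) and differed from Con by -0.06, with an interval from -0.23 to 0.10. The edgeR quasi-likelihood test gave adjusted p of 0.0391 for the rise and 0.008566 for the fall. The rise did not pass under limma on log2 FPKM, where the log2 fold change was 0.40 and the adjusted p between 0.06034 and 0.1281. Gm27252 and E030018B13Rik lie on the opposite strand of this locus, and the strand setting of the counting was not given in the sources used here.

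Klf11 (ENSMUSG00000020653, chromosome 12, 24651274 to 24662789), one of the TGF-beta-inducible pair, was lower in VanLip than in Van. FPKM was 19.3, 17.5 and 19.6 in Con, 22.6, 18.5 and 19.6 in Van, and 16.9, 15.4 and 14.4 in VanLip. Every VanLip library was below every Con and Van library, and Van replicate 1 was the highest. Normalized counts of the groups in that order were 7134 ± 385, 7618 ± 926 and 5807 ± 509 (mean ± SD, n = 3 each). The log2 fold change for VanLip against Van was -0.39 (standard error 0.11, adjusted p = 0.004449). It was -0.30 for VanLip against Con (standard error 0.11), where the adjusted p of 0.06462 did not pass. Without Van replicate 1 the VanLip against Van value was -0.29 with an adjusted p of 0.05772, so the call did not hold there, while the VanLip against Con value then passed (adjusted p = 0.02279), as it did without VanLip replicate 1 (adjusted p = 0.01996). On limma with log2(FPKM + 1) the VanLip against Van value did not pass either (adjusted p = 0.08947), nor with a pseudocount of 0.1 (adjusted p = 0.1117). The edgeR quasi-likelihood test gave an adjusted p of 0.04825 for it.

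Klf10 (ENSMUSG00000037465, chromosome 15, 38291463 to 38300706), the other TGF-beta-inducible factor, had FPKM values of 52.9, 48.5 and 51.2 in Con, 61.7, 46.7 and 43.6 in Van, and 46.7, 48.0 and 46.3 in VanLip. All VanLip libraries were just below all Con libraries, and Van replicate 1 was apart from the other 2 Van libraries. In the 3 comparisons the intervals of the log2 fold change were -0.26 to 0.22, -0.37 to 0.11 and -0.36 to 0.12. Klf16 (ENSMUSG00000035397, chromosome 10, 80567124 to 80577321), a repressor of the same branch, had FPKM values of 6.76, 5.44 and 7.96 in Con, 7.00, 6.96 and 6.49 in Van, and 5.70, 7.10 and 5.88 in VanLip. Its groups overlapped, and the intervals reached from -0.26 to 0.29, -0.40 to 0.15 and -0.41 to 0.13 in the 3 comparisons.

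**Figure D3:**
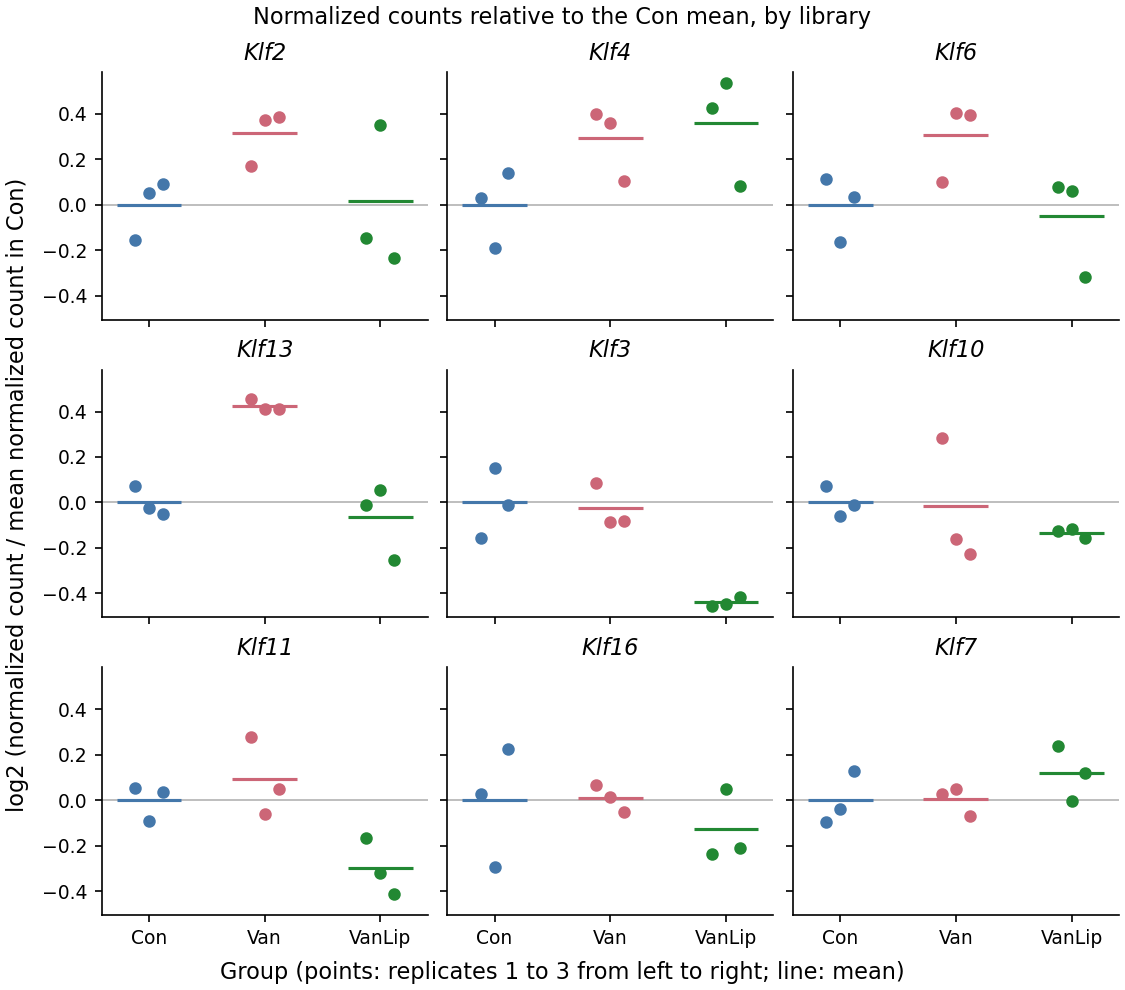
Normalized count of each gene in each library as a log2 ratio to its Con mean, in 1 panel per gene on a shared axis, with replicates 1 to 3 from left to right in each group and a line at the group mean. The 3 Van points of Klf13 lie together above the Con mean, the 3 VanLip points of Klf3 lie together below it, and 1 VanLip point of Klf2 lies far above the other 2.

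Across the 9 libraries, the members whose log2(FPKM + 1) values went together most were Klf6 and Klf13 (Pearson r = 0.85), Klf2 and Klf13 (r = 0.75), Klf3 and Klf11 (r = 0.74) and Klf2 and Klf6 (r = 0.72). These values hold the group differences. As deviations from the group means, r was 0.72 for Klf6 and Klf13, 0.57 for Klf2 and Klf13, 0.49 for Klf2 and Klf6 and -0.04 for Klf3 and Klf11. The highest values on that scale were 0.76 for Klf4 and Klf16 and 0.74 for Klf4 and Klf13, and the lowest was -0.71 for Klf3 and Klf6. Among 7803 genes with a mean FPKM of at least 5, the 2 most like Klf13 were Cct4, a subunit of the cytosolic chaperonin (r = 0.97), and Rab3gap2 (r = 0.97). For Klf3 they were Eed, a core subunit of the Polycomb complex PRC2 (r = 0.98), and the ETS factor Elf4 (r = 0.97). For Klf11 they were N4bp2 (r = 0.96) and Ttpal (r = 0.95). All are over the same 9 libraries with their group differences, and 79, 33 and 34 genes had an r over 0.9 with Klf13, Klf3 and Klf11.

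The other 8 Klf genes added little to the family's total, as the 9 members made up between 97.0% and 98.7% of the FPKM of all Klf genes in each library. Klf9, a Sin3-binding factor known as a target of glucocorticoids, was the most abundant of them and, like Klf13, was highest in Van. Its FPKM was 12.6, 13.5 and 14.6 in Con, 24.7, 22.2 and 25.6 in Van, and 9.05, 9.41 and 6.90 in VanLip. No groups overlapped, and VanLip was below Con as well as below Van. Van was higher than Con by a log2 value of 0.82 (standard error 0.12, adjusted p = 2.63e-08). VanLip differed by -0.70 from Con (adjusted p = 2.868e-06) and by -1.52 from Van (adjusted p = 1.237e-31). Klf15, another glucocorticoid target, was at 0.878, 1.52 and 0.912 mean FPKM in Con, Van and VanLip. Its Van libraries were above all Con and VanLip libraries in FPKM and in normalized count, with log2 values of 0.78 for Van against Con (adjusted p = 0.07876) and -0.74 for VanLip against Van (adjusted p = 0.05139). The test of any difference among the 3 groups called Klf15 (adjusted p = 0.03312). Klf8, which binds CtBP like Klf3, was at 0.856, 0.956 and 0.847 mean FPKM and was not called. Klf1, the erythroid member, is given with the red cell markers below. Klf5, Klf12 and Klf14 were at a mean FPKM of 0.013 or lower over the 9 libraries, and Klf17 was at 0 in each.

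**Figure D4:**
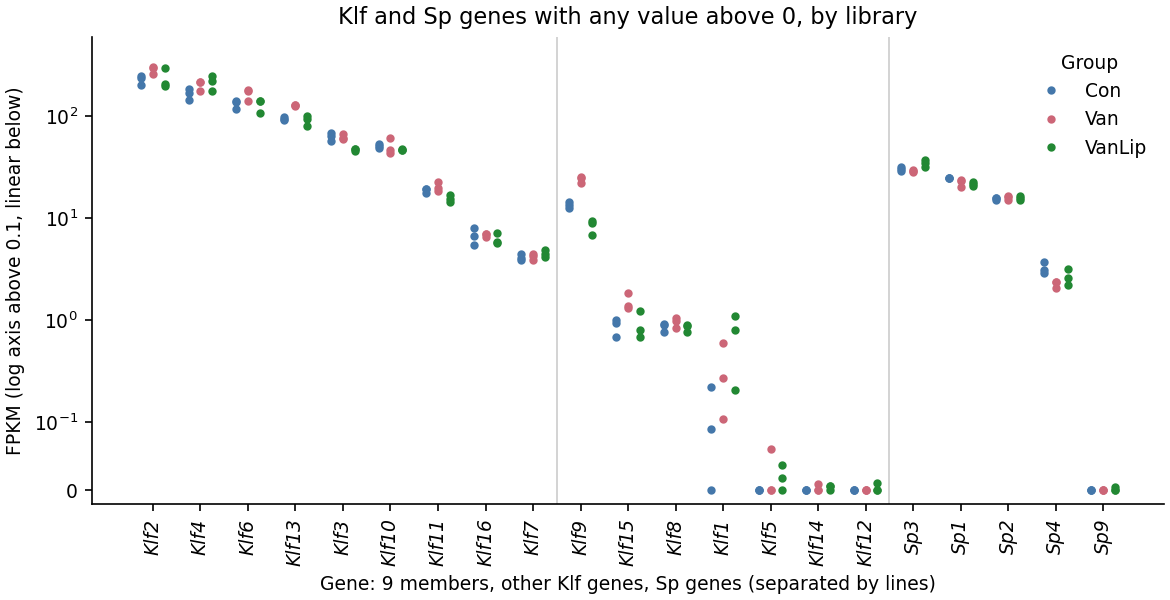
FPKM of each Klf and Sp gene with a value above 0 in any library, 1 point per library coloured by group, on an axis that is logarithmic above 0.1 and linear below. Klf9 separates the 3 groups, from 6.90 to 9.41 in VanLip to between 22.2 and 25.6 in Van, and Klf5, Klf12, Klf14 and Sp9 lie at or near 0.

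Sp proteins read the same GC boxes through related zinc fingers, and 4 of the 9 Sp genes were expressed well enough to test. Sp1 was at 24.9 ± 0.0942, 22.4 ± 1.74 and 21.8 ± 1.08 FPKM in Con, Van and VanLip (mean ± SD, n = 3 each), and VanLip was below Con (log2 fold change -0.21, adjusted p = 0.02382). Sp3 was at 30.4, 29.2 and 34.7 mean FPKM and was higher in VanLip than in Van by 0.27 (adjusted p = 0.0101). Sp4 was at 3.24, 2.27 and 2.65 and was lower in Van than in Con (log2 fold change -0.52, adjusted p = 0.01462). Sp2 was at 15.6, 16.0 and 15.8 and passed in no comparison. Sp5, Sp6, Sp7 and Sp8 were at 0 in all libraries.

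The signal known to induce Klf2 runs from Map3k3 over Map2k5 and Mapk7 to the MEF2 factors, while Foxo1 raises Klf2 in lymphocytes and Wwp1, Smurf1, Fbxw7 and Btrc belong to ubiquitin ligases that mark Klf proteins for turnover. Of these 11 genes, 0 passed for Van against Con, and 2 were higher and 1 lower at an unadjusted p under 0.05. For VanLip against Van, 3 of the 11 fell: the MEF2 factor gene Mef2d (log2 fold change -0.41, adjusted p = 0.003062), the kinase gene Map3k3 (log2 fold change -0.26, adjusted p = 0.00668) and Foxo1 (log2 fold change -0.17, adjusted p = 0.0277). For VanLip against Con, Mapk7 rose by 0.28 (adjusted p = 0.01417) and Foxo1 fell (log2 fold change -0.28, adjusted p = 7.012e-05). The median log2 fold changes of the list were -0.10, -0.05 and 0.06 in the 3 comparisons, in the order given above.

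Among 10 genes of the complexes that Klf proteins recruit, 1 rose for Van against Con, Ctbp2, a partner of Klf3, by 0.25 (adjusted p = 0.03253). For VanLip against Van 3 fell: Crebbp (log2 fold change -0.31, adjusted p = 0.0007733) and Ep300 (log2 fold change -0.25, adjusted p = 0.001269), which encode the closely related histone acetyltransferases CBP and p300, and Ctbp2 (log2 fold change -0.24, adjusted p = 0.02386). Kat2b, another histone acetyltransferase gene of the list, did not pass there (log2 fold change -0.13, adjusted p = 0.4257). For VanLip against Con 0 passed the DESeq2 test, and 2 were lower at an unadjusted p under 0.05. The Sin3 genes Sin3a and Sin3b passed in no comparison.

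A list of 17 genes described as targets of Klf2, Klf4, Klf6, Klf10, Klf11 or Klf13 held 15 that could be tested. Plau, the urokinase gene, fell in Van (log2 fold change -0.75, adjusted p = 0.0006248) and was higher in VanLip than in Van by 1.04 (adjusted p = 1.037e-08). The integrin gene Itgb7 was higher in VanLip than in Van by 0.40 (adjusted p = 0.02773), although libraries of the 2 groups overlapped in normalized count (not in FPKM), and Cdkn1a, the cell cycle inhibitor p21, was lower (log2 fold change -0.46, adjusted p = 0.04392). For VanLip against Con 0 of the 15 passed, with 1 higher and 3 lower at an unadjusted p under 0.05. The list's median log2 fold changes were -0.04, 0.18 and 0.15 in the 3 comparisons. Ccl5, the target after which Klf13 was first described, passed in none of them.

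In the TGF-beta pathway, which induces Klf10 and Klf11, 9 genes were measured. Smad4, the shared partner of the receptor-activated Smads, rose in Van by 0.22 (adjusted p = 0.02536) and fell in VanLip against Van (log2 fold change -0.33, adjusted p = 8.934e-06), while the receptor gene Tgfbr2 fell in Van (log2 fold change -0.26, adjusted p = 0.0415). In VanLip, the ligand gene Tgfb1 was lower than in Con (log2 fold change -0.20, adjusted p = 0.005101) and the Smad repressor gene Skil (log2 fold change -0.50, adjusted p = 0.02175), and Ski was lower than in Van (log2 fold change -0.23, adjusted p = 0.02941). In all, 1 gene rose and 1 fell in the first comparison, and 2 fell in each of the other two.

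Several Klf genes are induced within minutes of a stimulus, as are the 18 immediate early genes examined beside them. For Van against Con 0 of the 18 passed, with 4 higher at an unadjusted p under 0.05 and 0 lower. For VanLip against Con 4 fell and 1 rose. The 4 with the lowest adjusted p there were Atf3 at -0.61 (adjusted p = 4.953e-08), Egr3 at -1.37 (adjusted p = 0.0001362), Btg2 at -0.34 (adjusted p = 0.02298) and Egr1 at -0.59 (adjusted p = 0.02322), the last with overlap between libraries. For VanLip against Van 6 fell and 1 rose, led by Atf3 at -0.55 (adjusted p = 1.007e-06), Fosb at -0.45 (adjusted p = 0.0003549), Jund at -0.50 (adjusted p = 0.0005095) and Jun at -0.54 (adjusted p = 0.003125). The median log2 fold change of the list was 0.03, -0.22 and -0.36 in the 3 comparisons, beside 0.10, -0.06 and -0.30 for the 9 Klf genes. The summed FPKM of the list was between 5397 and 7103 in Con, 5934 and 6380 in Van and 5290 and 6081 in VanLip. The part of such early induction in the values of the 9 Klf genes was not tested.

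Genes that mark the make-up of the samples moved as well. Among 5 lineage factors, Cebpa, which directs granulocyte and monocyte development, rose in Van by 0.49 (adjusted p = 0.003254) and fell in VanLip against Van (log2 fold change -0.87, adjusted p = 8.448e-11) and against Con (log2 fold change -0.38, adjusted p = 0.02886), and Irf8 was higher in VanLip than in Van by 0.42 (adjusted p = 0.0006036). Of the 9 monocyte markers, Ccr2, which is high on inflammatory monocytes, fell in Van (log2 fold change -0.83, adjusted p = 0.0004799) and was higher in VanLip than in Van by 1.04 (adjusted p = 7.377e-07), together with Cx3cr1 at 0.43 (adjusted p = 0.002638) and Ly6c2 at 0.39 (adjusted p = 0.02619). For VanLip against Van 7 of the 9 monocyte markers had a positive and 2 a negative value, the lower being Cd14 at -0.46 (adjusted p = 0.3413). For Van against Con 3 were positive and 6 negative. The summed FPKM of the 9 was between 2026 and 2101 in Con, 1926 and 1997 in Van and 2124 and 2224 in VanLip. Of the 4 macrophage markers Vcam1 rose in Van by 0.46 (adjusted p = 0.01058) and fell in VanLip against Van (log2 fold change -0.50, adjusted p = 0.001762), and the 4 summed to between 394 and 495 FPKM in Con, 514 and 658 in Van and 387 and 549 in VanLip. Among the 4 dendritic cell markers, Xcr1, a receptor of cross-presenting dendritic cells, was lower than in Con in both Van (log2 fold change -0.85, adjusted p = 0.008971) and VanLip (log2 fold change -0.73, adjusted p = 0.01816). Siglech, a receptor of plasmacytoid dendritic cells, fell in Van (log2 fold change -0.89, adjusted p = 0.04743) and was higher in VanLip than in Van by 0.85 (adjusted p = 0.02994). Flt3, the most abundant of the 4, had the only positive value for Van against Con, at 0.25 (adjusted p = 0.608). The 4 dendritic cell markers summed to between 11.0 and 12.3 FPKM in Con, 11.6 and 12.6 in Van and 11.4 and 17.1 in VanLip. Of the 4 endothelial markers the receptor gene Kdr was lower in VanLip than in Van (log2 fold change -1.06, adjusted p = 0.0156). The other 3 endothelial markers had positive values there. The 4 summed to between 8.03 and 10.9 FPKM in Van and between 8.41 and 10.9 in VanLip. Of the 5 neutrophil markers the granule gene Ngp was lower in VanLip than in Con (log2 fold change -1.94, adjusted p = 0.03726). Of the B cell, T cell, NK cell and platelet markers 0 passed the DESeq2 test in the 3 comparisons, with 2 lower, 2 lower and 1 higher at an unadjusted p under 0.05 in the order given above. Klf13, like Cebpa and Vcam1, was higher in Van than in both other groups, and the part of a changed mixture of cells in it was not tested.

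The 4 erythroid markers analysed, Hba-a1, Hbb-bs, Alas2 and Klf1, summed to between 56.8 and 114 FPKM in Con, 189 and 429 in Van and 155 and 639 in VanLip. In Van 3 of the 4 rose and in VanLip all 4 rose over Con, while 0 passed between VanLip and Van. Klf1, the factor that red cell precursors need for globin expression, was at a mean FPKM of 0.104, 0.324 and 0.702 in Con, Van and VanLip and differed between VanLip and Con by a log2 value of 2.74 (standard error 0.92, adjusted p = 0.04535), with libraries that overlapped. Within VanLip the erythroid sum was 155 in replicate 1 and 639 and 601 in replicates 2 and 3. The part of red cell RNA in the values of the 9 genes was not tested.

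The edgeR quasi-likelihood test called fewer of the genes named outside the 9. It called Klf9 in all 3 comparisons and Plau in the same 2 as DESeq2. It also called, for VanLip against Con, Foxo1, Atf3, Egr3 and 3 of the 4 erythroid markers, Klf1 not among them. Between VanLip and Van it called Mef2d, Crebbp, Ep300, Smad4, Atf3, Fosb, Jund, Cebpa, Irf8, Ccr2, Cx3cr1, Vcam1 and Sp3. The remaining genes named with an adjusted p of 0.05 or under in the DESeq2 Wald test were not called by edgeR. Where a list had 0 genes passing with that test, edgeR called 0 as well.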

How the data were processed

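Splenic monocyte RNA was sequenced from 9 libraries (Con, Van and VanLip, 3 each), grouped by the sample titles. Per the labels, poly-A libraries were prepared with a stranded kit, and the submitters' processing notes name HISAT2 2.2.1, SAMtools 1.9, StringTie 2.1.3, DESeq2 1.38.3 and the build GRCm38. The annotation release was not given in the sources used here. The authors deposited FPKM values from StringTie and expected counts from tximport, which are not normalized and need not be whole. Expected counts were rounded and tested with the Wald test and the likelihood-ratio test of DESeq2 1.42.0 in R 4.3.3, with all 9 libraries in 1 fit, group as the only term and Benjamini-Hochberg adjustment over all genes. Intervals are the log2 fold change plus or minus 1.96 standard errors, and all p-values are two-sided.

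Genes of the other lists were named where they passed in a comparison, at most 4 per list and comparison by lowest adjusted p, with some exceptions named after their values were seen (such as Sin3a, Sin3b and Ccl5). The 9 members and all lists were chosen with earlier results of these data known. One gene of the marker lists is not reported here. For each member with a call, the 2 genes with the highest Pearson r of log2(FPKM + 1) were named. Coordinates are those of GENCODE M21, and 98.96% of 26108 detected genes matched it. Alternatives were edgeR 4.0.16 (quasi-likelihood test), TMM library sizes, a minimum of 10 counts in 3 libraries, fits with just the pair of groups compared, the replicate number as a block, no independent filtering, limma 3.58.1 on log2 FPKM after quantile normalization (pseudocount 1 or 0.1, or genes averaging 1 FPKM or more), fragments with VanLip thinned, and leaving out each library in turn. The DESeq2 Wald test, edgeR and limma with a pseudocount of 1 were tested on simulated data first, in the 3 comparisons. The likelihood-ratio test and the other alternatives were not scored there. Depth was between 16191865 and 46180176 fragments per library, inferred as the total count over 2 times the commonest low count. The study gives 3 mice a group. Whether spleens were combined for the RNA libraries, as they were for its cultures, was not stated. The p-values therefore measure the spread between these libraries, counting error included.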

Additional observations from a re-analysis of the deposited data

How the results depend on the processing

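Klf13 was called lower in VanLip than in Van under all 19 alternatives. For Van against Con, 4 members were called when just these groups were fitted (Klf2, Klf4, Klf6 and Klf13), where 9.23% of all genes were called, with adjusted p of 0.00811 for Klf2, 0.04838 for Klf4 and 0.03009 for Klf6. Under limma with a pseudocount of 1, with 0.1 or with a mean FPKM of 1 or more, 0 members were called there (0.352%, 0.0651% and 0.769% of all genes), and Klf13 had adjusted p of 0.08285, 0.1281 and 0.06034. For VanLip against Con, 2 were called with TMM library sizes (Klf3 and Klf4; 6.42% of all genes) and 0 under limma with a pseudocount of 1 or 0.1 (0.908% and 0.643%). For VanLip against Van, 1 was called under limma with a pseudocount of 0.1 (Klf13; 1.98% of all genes). The test of any difference called 1 under limma with a pseudocount of 1 (Klf13; 2.19% of all genes) and 0 with 0.1 (330 of 26108 genes). It called 2 (Klf3 and Klf13) under edgeR (4.67%) and under limma with the FPKM minimum (6.18%), where Klf11 had adjusted p of 0.08269 and 0.07902. The cause of the lower limma counts was not tested.

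Same-numbered libraries deviated from their group means with correlations between -0.065 and 0.123 over 13503 genes, so the numbers were taken as names only. With the replicate block 1 member was called in the first comparison, 2 in VanLip against Con (Klf3 and Klf11) and 3 in the third, where 3.66%, 4.5% and 6.71% of all genes were called.

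Leaving out 1 library gave between 1 and 2 members for Van against Con (2 without Van replicate 1, VanLip replicate 2 or VanLip replicate 3) and between 1 and 2 for VanLip against Con (2 without Van replicate 1, VanLip replicate 1 or VanLip replicate 3). It gave between 3 and 5 in the third comparison (5 without VanLip replicate 2) and between 3 and 4 in the test of any difference, which lost Klf11 without VanLip replicate 2 or 3. Over all genes these fits called between 2.37% and 6.48%, 3.39% and 8.15%, 6.23% and 10.3%, and 8.63% and 15.2%, in that order. Of the 22 differences of members that did not pass, 10 changed sign in at least 1 fit and 12 in none, and 0 of the 5 called ones did. Over the fits without 1 library the log2 fold change of Van against Con lay between -0.098 and 0.0569 for Klf3, -0.0422 and 0.0715 for Klf7, -0.19 and 0.0798 for Klf10, -0.00448 and 0.17 for Klf11, and -0.116 and 0.14 for Klf16. That of VanLip against Con lay between -0.187 and 0.12 for Klf2, -0.12 and 0.071 for Klf6, and -0.13 and 0.0218 for Klf13, and that of VanLip against Van between -0.0292 and 0.19 for Klf4 and between -0.21 and 0.0611 for Klf10. Klf2 in VanLip against Con was at -0.0328, -0.033 and -0.0328 under limma with a pseudocount of 1, with 0.1 and with the FPKM minimum. With fragments and VanLip thinned to the depth of the others, the calls of members were the same in every comparison, while the inferred size of 1 read went with VanLip in every fit.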
